A study of Mus musculus with 9 samples.

Results

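T cells that had been kept in medium conditioned by adipocytes, the lipid-storing cells of fat tissue, were compared directly with T cells kept in medium conditioned by stromal cells, the supporting connective cells of a tissue. The comparison takes 6 of the 9 samples of the series, 3 in each conditioned medium, and every gene of the deposited sample table. The cells were CD3+ T cells taken from the spleens of 3 wild-type C57BL/6 mice by negative selection, which removes the other cell types, and 1 library per mouse and medium was sequenced. Incubation lasted 4 h in all groups. The other 3 samples, from the same mice, were kept in medium that no cells had conditioned, and they serve here as the reference level. The labels give no age of the mice and do not say which adipocytes or stromal cells conditioned the media, so either medium is known here by its name alone.

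A resting T cell responds to its surroundings through several layers of control. Signals that raise calcium, cyclic AMP or kinase activity switch on immediate early genes such as the NR4A and AP-1 transcription factors, and cytokine genes follow. Interferons switch on antiviral and guanylate binding protein genes, and the suppressor SOCS1 is a feedback target of that pathway. Sterols act through the nuclear receptor LXR on cholesterol export genes, while fatty acids taken up from outside are stored in droplets coated by perilipin 2 or burned after entry into mitochondria through CPT1A.

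The table lists 2889 genes, and 2868 of them averaged 1 or more normalized counts (a read count divided by the sample's size factor) and were tested with limma. The authors had listed each of these genes as changed beyond 1.5-fold against unconditioned medium in at least 1 of the conditioned media. The selection thus used these same samples, and each share below is a share of that selection. Reads on the listed genes numbered 7672064 to 13758643 per sample. The top 100 genes of a sample held 42.07% to 44.14% of its normalized counts in adipocyte medium and 36.3% to 37.61% in stromal medium. All 6 T cell markers that the table holds, Cd3e, Cd3g, Cd8a, Cd8b1, Cd27 and Bcl11b, had reads in every sample. Each sample of a group came from another mouse, and the p-values measure the spread between samples within a medium, in which mouse and library are mixed. The same mice supplied every medium, but the main fit did not pair them.

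Cells in adipocyte medium differed from cells in stromal medium at most of the listed genes. Of the 2868 tested genes, 2609 (91%) passed an adjusted p of 0.05, 968 (33.8%) with a higher and 1641 (57.2%) with a lower level in adipocyte medium, and 259 did not pass. The difference reached at least 2-fold at 482 higher (16.8%) and 943 lower (32.9%) genes, and at least 8-fold at 45 (1.57%) and 66 (2.3%). The median log2 difference over all tested genes was -0.60, with quartiles at -1.19 and 0.72, a range from -6.19 to 5.51 and a median standard error of 0.13. In 2569 genes (89.6%) the 3 values of one medium lay entirely above or below the 3 values of the other.

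The split between higher and lower genes depends on how the libraries were scaled. When the libraries were rescaled by the median of ratios over the listed genes, differences moved up by 0.57 on the log2 scale, and by less at low genes because 1 is added before the log. The calls then numbered 1172 higher (40.9%) and 1090 lower (38%), and the higher genes made up 51.8% of the calls instead of 37.1%. All 968 higher calls kept their direction and their side of the threshold, as did 1090 of the lower calls, and 35 lower calls turned into higher ones. Because the shift is upward, it could hardly remove a higher call, so the kept higher calls are no check of them. Counts of higher and lower members after rescaling follow the first counts below, and the same holds for the higher counts there. Each list count below is to be read beside the shares over all tested genes. These were 33.8% higher and 57.2% lower, or 40.9% and 38% after rescaling.

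**Figure D1:**
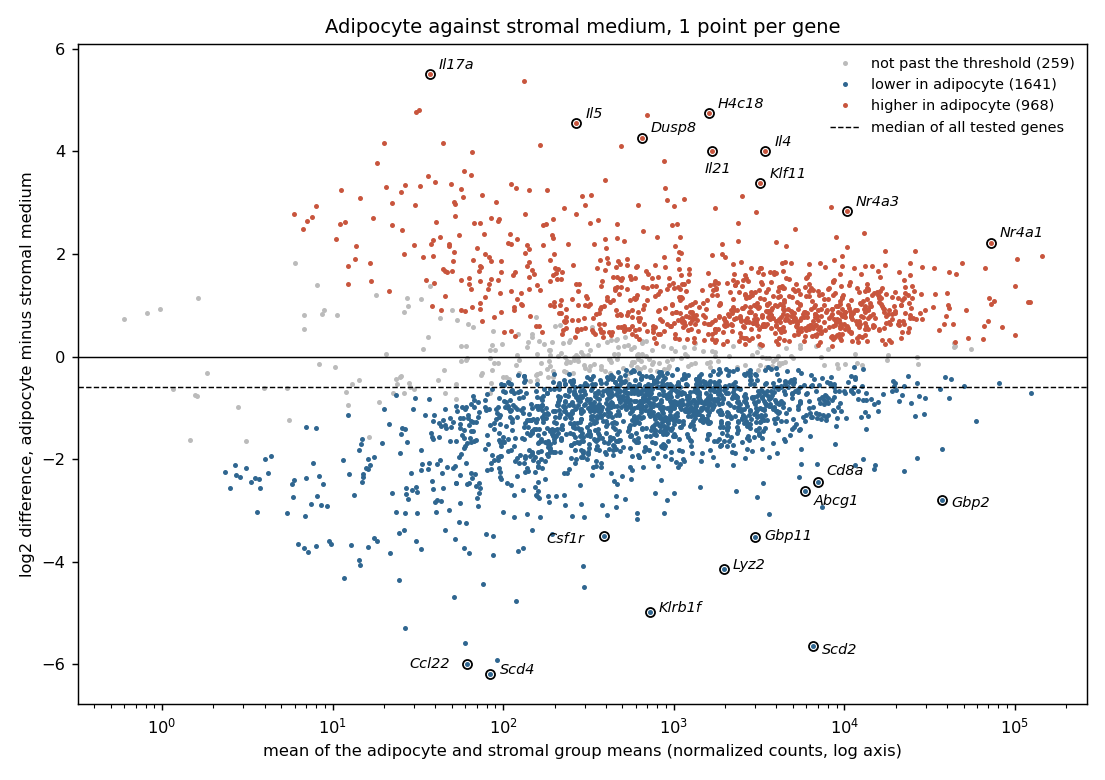
Each point is 1 of the 2868 tested genes, with the mean of the adipocyte and stromal group means in normalized counts on the x axis (log axis) and the log2 difference, adipocyte minus stromal medium, on the y axis; colours mark the 968 higher, the 1641 lower and the 259 genes not past the threshold, and the dashed line is the median of -0.60. The cytokine genes and Dusp8 lie at the top, and Scd2, Scd4 and Ccl22 lie at the bottom.

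Transcripts of secreted cytokines and chemokines were far higher in adipocyte than in stromal medium. Of 29 tested members of the list, 25 were higher, 3 were lower and 1 did not pass, with a median log2 difference of 2.30 against -0.60 over all tested genes, and rescaling gave 26 higher and 2 lower. Interleukin 4 (Il4), the signature cytokine of type 2 helper cells, stood at 326, 556 and 319 normalized counts in stromal medium of mice 1, 2 and 3 and at 8856, 4358 and 6172 in adipocyte medium. The groups did not overlap, and their means differed 16.1-fold (log2 difference 4.00, standard error 0.26, limma adjusted p = 7.39e-08). Interleukin 5 (Il5), which supports eosinophils, was at 24.2, 19.8 and 15.6 in stromal and at 789.6, 421 and 336 in adipocyte medium. Its stromal values lay near the unconditioned ones, which were 18.6, 19.1 and 19.5. In the reference annotation 27.1% of the Il5 exon bases overlap an antisense gene, and the libraries do not keep strand.

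The T cell growth factor interleukin 2 (Il2) and the follicular helper cytokine interleukin 21 (Il21) moved with them. Il2 was at 174, 168 and 129 in stromal and at 2344, 966 and 1553 in adipocyte medium, a log2 difference of 3.28 with a standard error of 0.27. Il21 was at 173, 206 and 171 in stromal and at 4627, 1685 and 3229 in adipocyte medium, and its log2 difference was 4.00 with a standard error of 0.30. In each of these 3 cytokine genes, Il4, Il2 and Il21, mouse 2 had the lowest value of the adipocyte group. Transcripts for interferon gamma (Ifng), the cytokine of type 1 helper and cytotoxic cells, were at 321, 381 and 360.4 in stromal medium and at 2120, 1609 and 1698 in adipocyte medium (log2 difference 2.34, standard error 0.16). Adipocyte medium thus held the higher level of transcripts typical of type 1 and type 2 helper cells alike.

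Interleukin 17A (Il17a), the type 17 cytokine, was barely present outside adipocyte medium. It was at 0 in all 3 unconditioned samples and at 0, 1.98 and 0 in stromal medium, which came to 3 reads, against 90.6, 28.8 and 101.6 in adipocyte medium. The chemokine gene Cxcl2, which draws neutrophils, was at 49.2, 51.5 and 55.1 in stromal and at 817, 846 and 1109 in adipocyte medium. Il16, expressed by resting lymphocytes, was lower (log2 difference -0.72), though after rescaling it stood at -0.15 with an adjusted p of 0.0994. Interleukin 22 (Il22) was the 1 cytokine of the list that did not pass, with 41.7, 33.6 and 93.4 in stromal and 84.8, 79.2 and 67.4 in adipocyte medium (limma adjusted p = 0.24). Ccl22, a chemokine made by dendritic cells and macrophages, was at 180.3, 62.0 and 121 in stromal and at 4.32, 0 and 0 in adipocyte medium. In bulk RNA, fewer cells of a type and less RNA per cell cannot be told apart, which holds for Ccl22 and for the CD8 and lineage genes below. Il17a, Il16, Il22, Ccl22 and the other genes named below without belonging to the fixed naming rule were picked after their values were seen.

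The immediate early and activation genes rose along with the cytokine genes. Of 30 tested activation genes, 28 were higher and 2 were lower in adipocyte medium, with a median log2 difference of 1.59, and after rescaling 28 were higher and 1 lower. The groups did not overlap at any of the 30, against 89.6% of all tested genes that had no overlap. The 2 lower members were Tnfrsf18 at -0.99 and Havcr2 at -0.79, both receptors of the T cell surface. All 3 nuclear receptors of the NR4A family, which calcium and cyclic AMP signals induce quickly, were higher. Nr4a1 was at 21896, 29548 and 23226 in stromal and at 133265, 76974 and 147124 in adipocyte medium, a log2 difference of 2.22 with a standard error of 0.20. Nr4a3 was at 2417, 3165 and 2084 and at 20711, 14664 and 19111, a log2 difference of 2.84 with a standard error of 0.15. For both receptors the lowest adipocyte and the highest stromal sample came from mouse 2.

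The AP-1 subunit genes Jun and Junb were higher by log2 differences of 2.14 and 1.73. Their standard errors were 0.16 and 0.13. Every one of the 21 tested targets of cyclic AMP and its factor CREB was higher, with a median log2 difference of 1.60, and several of them are also activation genes. Among these targets, amphiregulin (Areg), a growth factor for epithelia, went from 160.3, 119 and 118 to 711, 646 and 601 with a log2 difference of 2.30. Of 15 genes of the NF-kB pathway 14 were higher and 1 was lower, with a median of 1.32, and after rescaling 14 were higher and none lower. The inhibitor gene Tnfaip3, whose protein A20 restrains NF-kB, rose from 58249, 65570.0 and 51294 to 252853, 196054 and 236105 (log2 difference 1.97). The serine protease granzyme B (Gzmb), a cytotoxic effector, was at 1419, 1866 and 1360 in stromal and at 9639, 7457 and 8954 in adipocyte medium.

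Of 18 feedback genes of MAP kinases and small GTPases 12 were higher and 5 lower, or 13 and 3 after rescaling. Among them, Dusp8 encodes a phosphatase of the stress-activated kinases JNK and p38. It was at 57.6, 81.8 and 49.1 in stromal and at 1225, 896 and 1594 in adipocyte medium, 19.7-fold by the means (log2 difference 4.27, standard error 0.24, limma adjusted p = 3.13e-08). The dual-specificity phosphatase family as a whole was split, with 6 of 11 tested members higher and 5 lower, and after rescaling 6 higher and 3 lower. By contrast, all 7 tested Kruppel-like factor genes were higher under either scaling, from 0.78 to 3.38. Klf11, a factor of the TGF-beta pathway, had values close together within each medium: 570.1, 567 and 549.6 in stromal and 6019, 5685 and 5920 in adipocyte medium (log2 difference 3.38, standard error 0.08). Of 12 TGF-beta and BMP targets 11 were higher and none was lower, with a median of 1.05 (all 12 were higher after rescaling), and the repressor Tgif1 was at 1.35.

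**Figure D2:**
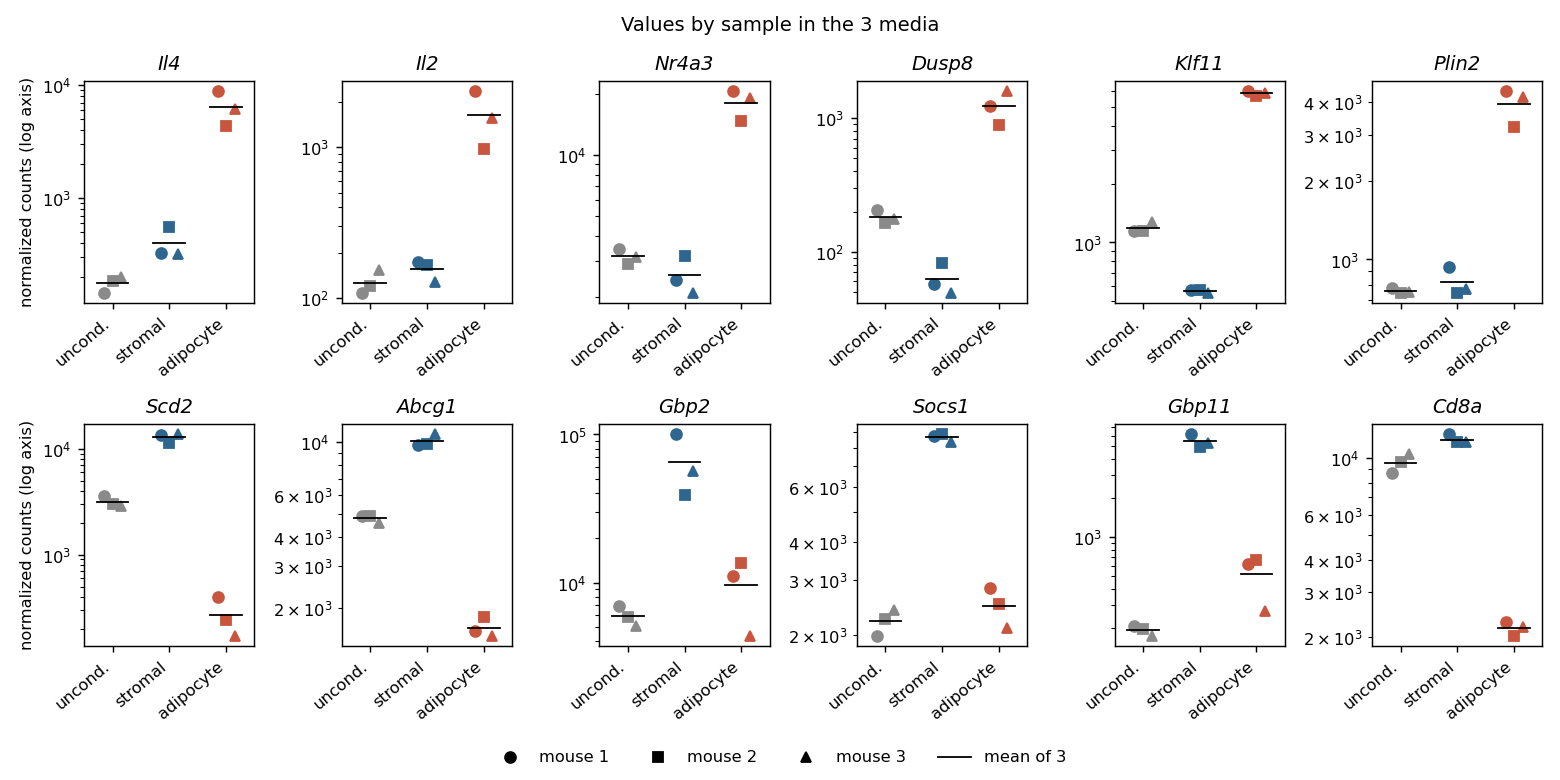
Normalized counts (log axis) of 12 genes in each of the 9 samples, by medium, with a marker shape for each mouse and a line at the mean of 3. In the upper row the adipocyte samples stand above both other media, with Il4 at 4358 to 8856; in the lower row the stromal samples stand above the adipocyte samples, with Scd2 at 11416 to 13661 in stromal medium.

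Lipid genes did not all move one way, and the stearoyl-CoA desaturase and sterol export genes were lower in adipocyte medium. Scd2 (ENSMUSG00000025203), the stearoyl-CoA desaturase that makes monounsaturated fatty acids, was at 13548, 11416 and 13661 in stromal and at 401, 242 and 170.0 in adipocyte medium. The means differed 47.5-fold, with a log2 difference of -5.65, a standard error of 0.23 and a limma adjusted p of 7.12e-09. Unconditioned cells lay between the media, at 3589, 2995 and 2857. The related desaturase Scd4 was at 147, 168 and 186 in stromal and at 1.44, 0 and 3.91 in adipocyte medium. The sterol exporters Abca1 and Abcg1 and the LXR target Mylip, which encodes a ubiquitin ligase, followed the same order. Abcg1 was at 9721, 9834 and 10805 in stromal, at 4896, 4875 and 4571 in unconditioned and at 1604, 1830.0 and 1519 in adipocyte medium (log2 difference -2.62, standard error 0.09). Abca1 differed by -2.73 and Mylip by -2.35.

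The 5 tested genes of the sterol export and LXR axis, which are Abca1, Abcg1, Mylip, Nr1h3 and Pltp, were all lower in adipocyte medium. The LXR gene itself, Nr1h3, no longer passed after rescaling (adjusted p = 0.147, limma). The wider list of fatty acid synthesis and LXR genes had 6 lower and 3 higher members of 9 tested (5 and 3 after rescaling). Over all tested genes 57.2% were lower and 33.8% higher (38% and 40.9% after rescaling), so the first counts of the wider list lay near those shares. The 3 higher members were Elovl6 at 1.00, Elovl7 at 0.99 and Smpdl3a at 0.61. Without the adipocyte sample of mouse 1 the median of that list went from -2.35 to -1.73. Cholesterol synthesis genes showed no single direction between the media: of 10 on that list 8 were lower and 2 did not pass, but rescaling gave 3 higher and 3 lower. Sqle, an enzyme of that pathway, was at -0.42 before rescaling and at 0.15 after it, where it did not pass.

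The list of lipid droplet, PPAR and fatty acid oxidation genes was split, with 7 of 20 higher and 13 lower in adipocyte medium, or 7 and 9 after rescaling. The shares over all tested genes were 33.8% higher and 57.2% lower. The higher members were Plin2, Hilpda, Dgat1, Cpt1a, Slc25a20, Etfdh and Fabp5. Plin2, the droplet coat protein and a PPAR target, was at 935, 744 and 774 in stromal and at 4418, 3233 and 4179 in adipocyte medium (log2 difference 2.26, standard error 0.13). The stromal values of Plin2 lay near the unconditioned ones of 780, 745 and 749.9. Hilpda, an inhibitor of droplet lipolysis, was at 696, 680.0 and 639 against 4923, 3405 and 4007 (log2 difference 2.60). Cpt1a, the gate for long-chain fatty acids into mitochondria, was at 2305, 1723 and 1852 in stromal and at 6899, 7810.0 and 6319 in adipocyte medium, with 3377, 3176 and 3362 in unconditioned medium. The carnitine carrier gene Slc25a20 was at 1.28 and Etfdh, which passes electrons from fatty acid oxidation to the respiratory chain, at 1.24. Lower members included the fatty acid activating enzyme Acsl1 at -1.55, the carnitine shuttle gene Cpt2 at -0.80 and the beta-oxidation enzymes Hadh at -1.35 and Acadm at -1.04. The uncoupling protein gene Ucp2 was at 24190, 24387 and 24656 in stromal and at 5248, 5081 and 6647 in adipocyte medium.

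Interferon-responsive genes were lower in adipocyte medium, and the targets of interferon gamma had a median of 2.45 above unconditioned medium in stromal medium and of 1.17 in adipocyte medium. Among 25 tested targets of interferon gamma 22 were lower, 1 was higher and 2 did not pass, with a median log2 difference of -1.25. After rescaling 14 were lower and 3 higher. The share of lower genes over all tested genes was 57.2%, or 38% after rescaling. All 10 tested guanylate binding protein genes, interferon-induced GTPases that act on intracellular microbes, were lower, from -3.51 to -0.85, and 9 of 10 remained lower after rescaling. Gbp2 was at 6924, 5869 and 5057 in unconditioned medium, at 100207, 39308 and 56331 in stromal medium and at 11136, 13495 and 4343 in adipocyte medium. The stromal mean was 6.76 times the adipocyte mean (65282 ± 31421 against 9658 ± 4752, SD, n = 3 each, log2 difference -2.80, standard error 0.38). The spread was wide, since the difference within a mouse was -3.17, -1.54 and -3.70. Gbp11 was at 206, 194 and 172 in unconditioned medium, at 6182, 4956 and 5309 in stromal medium and at 614, 667 and 269 in adipocyte medium. The mouse Gbp genes are close copies of each other, and Gbp10 and Gbp6 share 46.3% and 29% of their exon bases with another gene model, so their single values are uncertain. Summed myeloid markers, described further below, were lower in adipocyte medium as well, with 3466 to 3970 normalized counts per sample against 6269 to 12652 in stromal medium, and their part in the interferon genes was not tested.

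Socs1, which restrains the interferon signal, was highest in stromal medium as well. It was at 1982, 2258 and 2400.0 in unconditioned, at 8780.0, 8871 and 8382 in stromal and at 2835, 2517 and 2103 in adipocyte medium (log2 difference -1.81, standard error 0.11). The interferon gamma transcript itself was higher in adipocyte medium, as given above. Irf1, an interferon-induced transcription factor, broke from the group, with 44975, 37867 and 41539 in stromal and 54176, 52652 and 37505 in adipocyte medium (log2 difference 0.20, limma adjusted p = 0.162). Without mouse 3, Irf1 was higher in adipocyte medium with a log2 difference of 0.37 and a limma adjusted p of 0.0229. With all mice kept it also passed as higher after rescaling by the median of ratios (log2 difference 0.77, limma adjusted p = 2.67e-04).

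The genes of the type I interferon response were lower as well. Of 20 tested, 17 were lower, 2 were higher and 1 did not pass, with a median of -0.92, and rescaling gave 11 lower and 2 higher. Lower genes made up 57.2% of all tested genes, or 38% after rescaling. Ifit3b, an antiviral protein gene, was at 233, 188 and 219.8 in unconditioned medium, at 806, 317 and 489.7 in stromal medium and at 61.8, 57.6 and 49.8 in adipocyte medium. It thus lay on opposite sides of unconditioned medium, and the difference between the conditioned media was -3.13 with a standard error of 0.28. Slfn1, a regulator of T cell quiescence, was at 27338, 20043 and 25947 in stromal and at 5087, 6290.0 and 4656 in adipocyte medium. Isg15, a ubiquitin-like antiviral protein gene, was at 1016, 782 and 824 in stromal and at 827, 579.6 and 753 in adipocyte medium, and did not pass (limma adjusted p = 0.0877). In a fit that paired the samples by mouse Isg15 passed (limma adjusted p = 0.0487, log2 difference -0.29), and it passed without the adipocyte sample of mouse 1 (0.0369, log2 difference -0.39). After rescaling by the median of ratios its sign turned, to 0.28, and it did not pass (limma adjusted p = 0.116). Its direction thus depends on the scaling.

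Promoter letters are shown for Socs1 and Ifit3b, which were highest in stromal medium, and for Dusp8, which was highest in adipocyte medium, to show the matches in place. These genes were picked after the matches were seen. The windows of Nr4a1, Nr4a3, Klf11 and Hspa1b were searched as well and held no match, while those of Gbp2 and Gbp5 held an interferon-stimulated element each. The sequences are the 250 bases before the start site in RefSeq (GRCm38.p6), 5′ to 3′ on the strand of the gene. Socs1 lies on the minus strand at chr16:10785537-10785786, Ifit3b on the plus strand at chr19:34607707-34607956 and Dusp8 on the minus strand at chr7:142095285-142095534. Capitals mark matches on either strand to the interferon-stimulated response element GAAANNGAAA, to the AP-1 site TGANTCA or to the cyclic AMP response element TGACGTCA.
Socs1: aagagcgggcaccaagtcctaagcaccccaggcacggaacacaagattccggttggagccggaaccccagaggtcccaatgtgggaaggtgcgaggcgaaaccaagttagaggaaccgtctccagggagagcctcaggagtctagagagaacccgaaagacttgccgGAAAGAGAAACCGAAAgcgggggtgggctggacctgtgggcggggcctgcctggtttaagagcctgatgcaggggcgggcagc
Ifit3b: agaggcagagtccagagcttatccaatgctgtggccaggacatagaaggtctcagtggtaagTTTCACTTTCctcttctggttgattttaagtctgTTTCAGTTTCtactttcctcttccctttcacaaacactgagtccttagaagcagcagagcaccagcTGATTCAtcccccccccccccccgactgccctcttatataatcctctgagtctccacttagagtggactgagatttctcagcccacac
Dusp8: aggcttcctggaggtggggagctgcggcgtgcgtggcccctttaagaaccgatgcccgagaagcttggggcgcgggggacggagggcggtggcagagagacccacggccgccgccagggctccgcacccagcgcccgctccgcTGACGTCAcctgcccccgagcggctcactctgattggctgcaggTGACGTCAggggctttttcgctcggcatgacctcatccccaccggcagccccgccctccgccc

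The Socs1 window held 2 overlapping matches to the interferon-stimulated response element, which begin 83 and 77 bases before the start. The Ifit3b window held 2 such matches, 188 and 154 bases before the start, both read on the opposite strand, and an AP-1 match 88 bases before it. The Dusp8 window held 2 full cyclic AMP response elements, 107 and 63 bases before the start. Among all 32851 RefSeq promoter windows of this length, 2.98% held the interferon-stimulated element, and so did 10 of 20 windows (50%) of the interferon gamma list and 11 of 17 windows (64.7%) of the type I list. Those lists were drawn up from known interferon targets, so these list shares describe the lists and not the media. Among windows of tested genes, the interferon-stimulated element was in 2.37% of those of higher genes and in 4.08% of those of lower genes. Dusp8 is not on the list of cyclic AMP targets, and 3 of 19 windows (15.8%) of that list held the cyclic AMP response element. It was in 1.55% of all windows, in 3.86% of those of higher genes and in 1.4% of those of lower genes. The gamma-activated site TTCNNNGAA was in 7.02% of all windows, with 6.53% for higher and 6.21% for lower genes, and in 11 of 20 windows (55%) of the interferon gamma list. A window of some kind was found for 2313 of the 2868 tested genes.

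**Figure D3:**
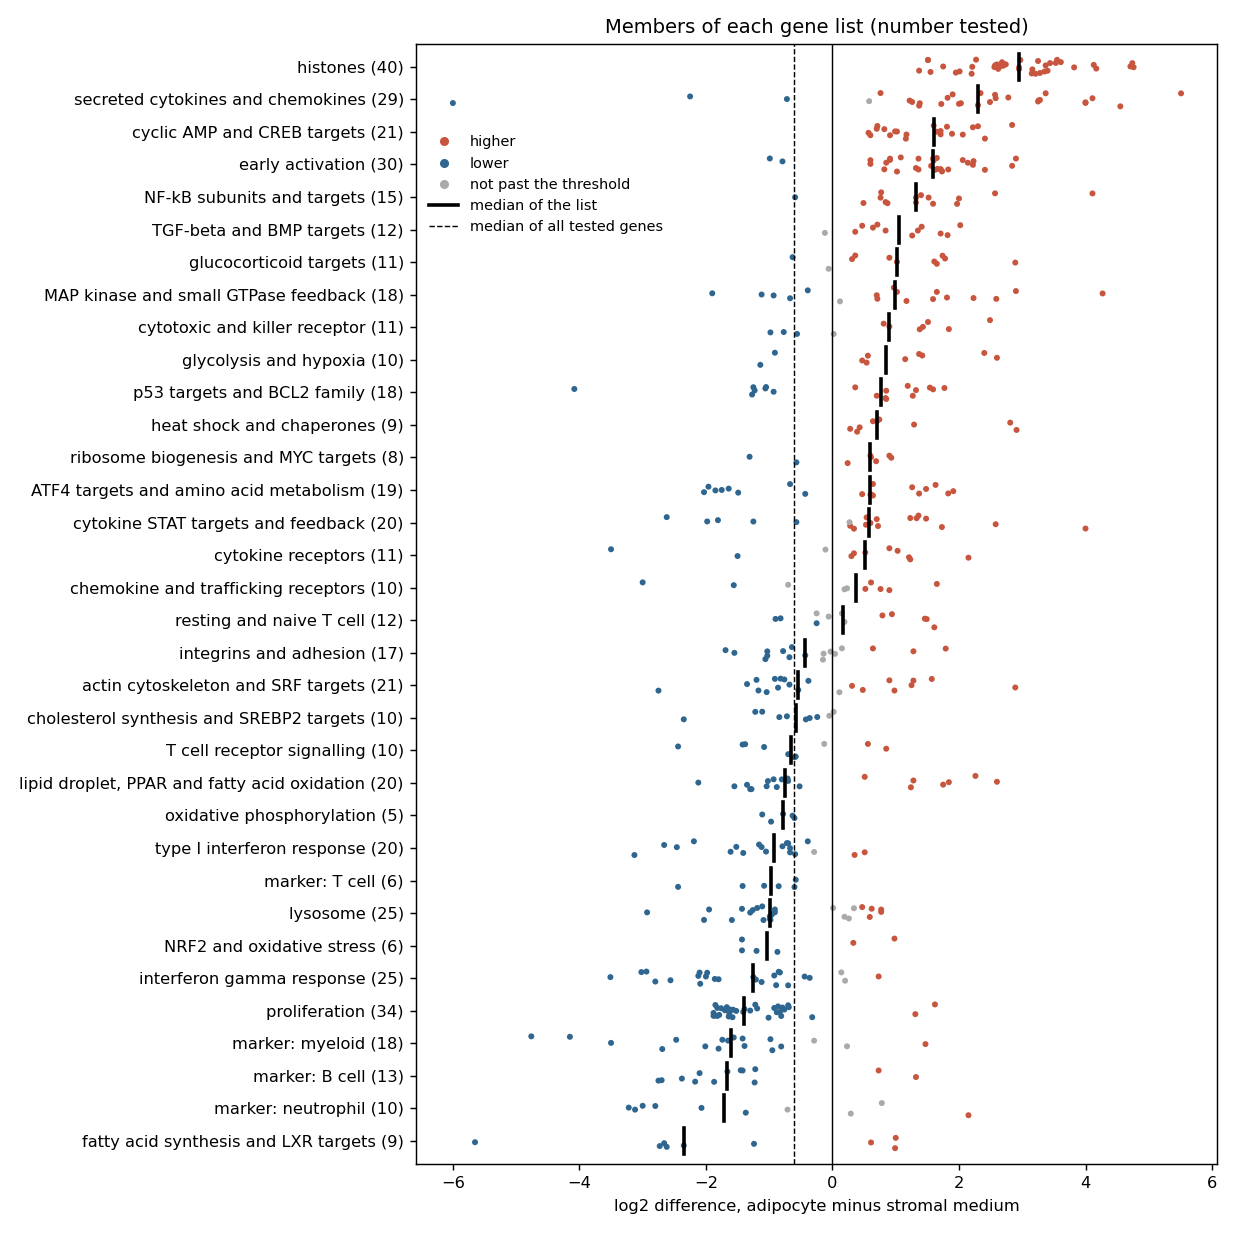
Each point is 1 gene of a list, placed by its log2 difference, adipocyte minus stromal medium, and coloured by whether it was higher, lower or not past the threshold; heavy bars are list medians, and the dashed line is the median of all tested genes at -0.60. Histone, cytokine, cyclic AMP and activation genes lie to the right, and of the lists drawn, those with at least 5 tested genes, the fatty acid synthesis and LXR list has the lowest median at -2.35.

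Some genes moved away from the unconditioned level in opposite directions. There were 70 genes (2.44% of those tested) that were higher in adipocyte and lower in stromal than in unconditioned medium, and 88 (3.07%) with the reverse pattern, each past the threshold on both sides. Since the 2 contrasts share the unconditioned samples, their values are given side by side only. Dusp8 led the first pattern, 2.72 above unconditioned medium in adipocyte medium and at -1.55 in stromal medium. Klf11 was at 2.30 and -1.08, and Dtx4, which encodes a ubiquitin ligase of the Deltex family, at 1.91 and -1.21. Rhob, a small GTPase that acts on actin and endosomes, was at 1.47 and -1.43. Its values were 1024, 1128 and 1157 in unconditioned, 502, 365 and 375 in stromal and 3275, 2379 and 3621 in adipocyte medium. Scaper differed mainly by its loss in stromal medium, with -2.38 there and 0.70 in adipocyte medium.

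In the reverse pattern the desaturase genes lay farthest apart, with Scd4 at -2.68 in adipocyte and 3.51 in stromal medium and the far more abundant Scd2 at -3.61 and 2.03. Klrb1f, a killer cell lectin-like receptor gene, was at 139, 118 and 102 in unconditioned medium, at 2037, 910.2 and 1279 in stromal medium and at 41.7, 59.4 and 28.3 in adipocyte medium. Its difference between the conditioned media was -4.98 with a standard error of 0.31. Ly6c1, a surface antigen of memory T cells and monocytes, was at -2.26 and 0.80. Gtse1, a mitotic gene that interferes with p53, was at -1.40 and 1.63, and its values were 1926, 969 and 1788 in stromal and 186, 216 and 148.5 in adipocyte medium. Car1 and Gata2, genes of erythroid and progenitor cells, belonged to this pattern too, with -1.70 and 1.47 for Car1 and -2.07 and 1.02 for Gata2. The p53 target Phlda3 was at -1.90 and 2.18.

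The number of opposite genes is less settled than the single large cases. Without mouse 1 the counts fell to 36 and 48, and without mouse 3 they fell to 39 and 56. Against a minimum change of 1.5-fold on each side, 4 and 9 genes were left. Rescaling by the median of ratios gave 91 and 164 genes.

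**Figure D4:**
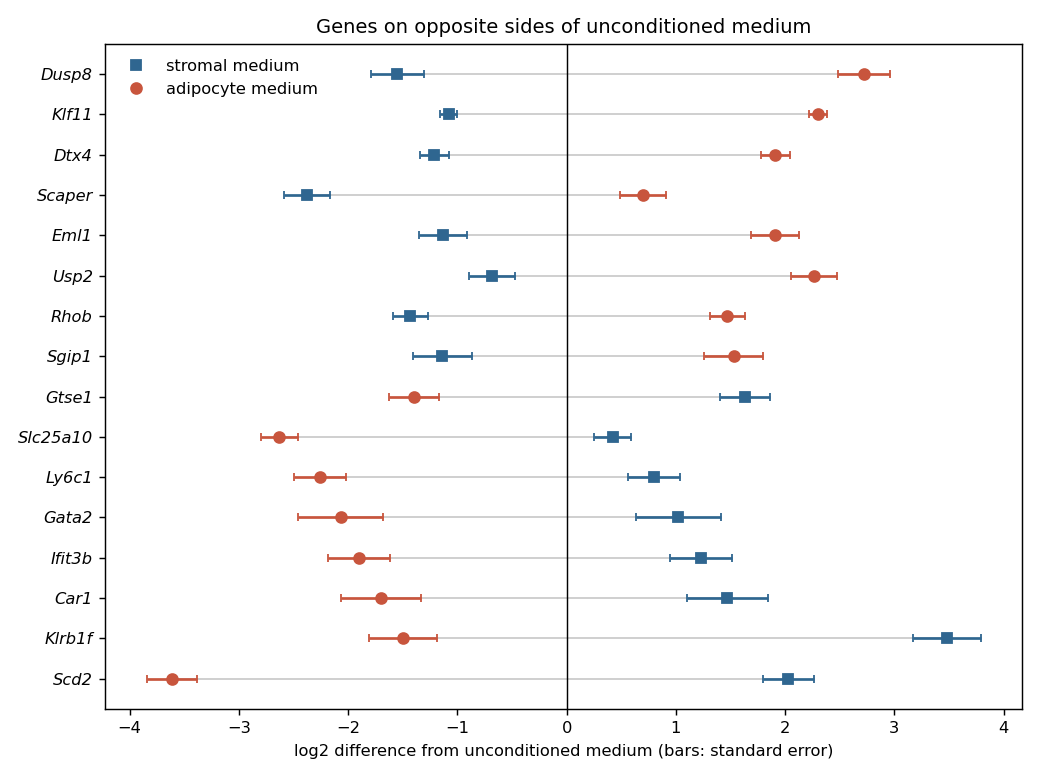
For the 8 named genes of each opposite pattern, log2 differences from unconditioned medium are plotted with standard errors, as squares for stromal and circles for adipocyte medium. The zero line separates both points of every gene, and of the genes drawn Scd2 spans the widest range, from -3.61 to 2.03.

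Amino acid and stress genes under the transcription factor ATF4 did not move as 1 block. Of 19 tested, 11 were higher and 8 were lower in adipocyte medium, or 11 and 6 after rescaling. All 4 tested transcription factor genes of that axis, Atf4, Atf3, Ddit3 and Cebpb, were higher, from 0.60 to 1.48. The transporter subunit Slc3a2, the heavy chain of large neutral amino acid transport, rose from 21201, 23176 and 19592 to 82103, 62200 and 84083 (log2 difference 1.83). Of the other transporter genes on the list, before rescaling Slc7a5 was lower at -0.67, while Slc7a1 and Slc38a2 were each higher at 0.64. Enzymes that build serine, proline and pyruvate products were lower, 6 of 6 before and 5 of 6 after rescaling, with a range from -2.03 to -0.43. Over all tested genes 57.2% were lower before and 38% after rescaling. Bcat2 and Got1, which are enzymes of the list outside this group, were higher at 1.63 and 0.47. Psph, the last step of serine synthesis, was at 2532, 2055 and 2390.0 in stromal and at 585, 678 and 459 in adipocyte medium. In unconditioned medium Psph was at 1437, 1594 and 1544. A set of genes that ATF4 is known to drive together was thus split, and so were the enzymes within it.

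Chaperone genes were higher in adipocyte medium, all 9 of 9 tested, with a median of 0.71, while 33.8% of all tested genes were higher. Hspa1b, an inducible HSP70 gene, was at 1769, 2301 and 1590.0 in stromal and at 15153, 8833 and 20742 in adipocyte medium (log2 difference 2.91, standard error 0.24). Its near-identical copy Hspa1a was at 2.81, and reads may be split between them. The constitutive chaperones moved less, with Hspa8 at 0.64 and Hsp90aa1 at 0.39. Glycolysis and hypoxia genes were higher at 8 of 10, among them the glucose transporter Slc2a3 at 1.42, while Pdk1, a kinase that restrains pyruvate dehydrogenase, was lower at -1.14.

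Histone and cell division genes moved apart. All 40 tested genes of the histone list were higher in adipocyte medium, from 1.37 to 4.76, with a median of 2.95. H4c18 was at 86.0, 154 and 110.2 in stromal and at 3082, 2496 and 3715 in adipocyte medium. Histone copies are nearly identical, and the messages of replication-dependent histones mostly lack the poly(A) tail at which the cDNA was primed. The part of priming in these values was not tested. Proliferation genes were lower at 32 of 34, with a median of -1.40, and 25 were lower and 3 higher after rescaling. Of all tested genes 57.2% were lower, or 38% after rescaling. Birc5, a mitotic survivin gene, was at 578, 573 and 541 in stromal and at 163, 183 and 137 in adipocyte medium. The 2 higher members were Cenpa, which encodes the centromeric histone H3 variant, at 1.62 and the cyclin gene Ccne2 at 1.31. The sets thus went in opposite directions, although both are linked to the cell cycle.

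Of 25 lysosomal genes 16 were lower in adipocyte medium and 5 higher, a share of lower genes near the 57.2% over all tested genes. The median was -0.98. Rescaling gave 16 lower and 9 higher, while over all tested genes 38% were then lower and 40.9% higher. Several enzymes of the lumen were among the lower members. Sgsh, a sulfatase that breaks down heparan sulfate, was at 808, 776 and 832 in stromal, at 112, 118 and 87.0 in adipocyte and at 1337, 1303 and 1311 in unconditioned medium (log2 difference between the conditioned media -2.93, standard error 0.13). In the annotation 21.6% of its exon bases overlap an antisense gene. Gusb, the beta-glucuronidase gene, was at -2.03 and Glb1, the beta-galactosidase gene, at -1.59. Higher members were Tfe3, a transcription factor for lysosomal genes, at 0.62 and the calcium channel gene Mcoln1 at 0.59.

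The CD8 chain genes were lower in adipocyte medium, whereas T cell receptor signalling genes stood near the level of all tested genes. Cd8a (ENSMUSG00000053977) was at 12325, 11465 and 11478 in stromal, at 8703, 9579 and 10320 in unconditioned and at 2292, 2017 and 2191 in adipocyte medium. The conditioned media differed by -2.44 with a standard error of 0.08 (limma adjusted p = 1.51e-09). The partner chain Cd8b1 was at 19746, 18875 and 19784 in stromal and at 7296, 7347 and 7213 in adipocyte medium (log2 difference -1.42). Cd3e, a chain of the receptor complex common to all T cells, was at 22698, 24552 and 23053 and at 15253, 15178 and 16452 (log2 difference -0.58). After rescaling it stood at -0.02 with a limma adjusted p of 0.878, while Cd8a remained at -1.87. Over the receptor signalling list 7 of 10 were lower and 2 higher, or 4 and 3 after rescaling. The median of that list was -0.65, against -0.60 over all tested genes, of which 57.2% were lower.

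Adhesion and quiescence genes included several that were lowest in stromal medium. Adgre5, the adhesion receptor CD97, was at 26092, 29844 and 29749 in unconditioned, at 6464, 8565 and 8350.0 in stromal and at 25807, 25338 and 29268 in adipocyte medium (log2 difference 1.79, standard error 0.11). Antisense overlap covers 23.8% of its exon bases. Itgb2, the common chain of the leukocyte integrins that include LFA-1, was at 14453, 15087 and 16138 in unconditioned, at 6753, 8584 and 7975 in stromal and at 19296, 16947 and 20136 in adipocyte medium. Klf2, a factor of naive T cells and their traffic, was at 27588, 25555 and 30596 in stromal against 52412, 45192 and 63858 in adipocyte medium, whose level overlapped that of unconditioned cells. Itga4, a chain of the integrin VLA-4, went the other way, with 10392, 7655 and 10297 in stromal and 3119, 3671 and 2834 in adipocyte medium. The adhesion list had 9 lower and 3 higher members of 17, but 4 lower and 7 higher after rescaling, so its direction depends on the scaling. The list of actin and SRF genes behaved alike, with 12 lower and 8 higher of 21 before and 8 lower and 9 higher after rescaling. All tested genes shifted in the same way, from 57.2% lower and 33.8% higher to 38% and 40.9%, so neither shift is particular to its list. Tpm4, a tropomyosin gene of the actin list, was at 1.28.

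Markers of cell types that negative selection should remove differed between the media too. Of 13 B cell markers 11 were lower and 2 higher in adipocyte medium, with a median of -1.66. After rescaling 10 were lower and 2 higher. Over all tested genes 57.2% were lower, or 38% after rescaling. The higher members were H2-Ob at 0.73 and Cd83 at 1.32, and activated T cells express Cd83 as well. Summed over the list the markers came to 18618 to 24600 normalized counts per sample in stromal medium and to 17242 to 22167 in adipocyte medium, of which Cd83 alone gave 10030 to 13197 in adipocyte and 3906 to 5023 in stromal medium. Without Cd83 the sums were 13824 to 19577 in stromal and 7044 to 8970 in adipocyte medium and did not overlap. Of 18 myeloid markers 15 were lower and 1 higher, with a median of -1.60 and sums of 6269 to 12652 in stromal and 3466 to 3970 in adipocyte medium, and after rescaling 11 were lower and 2 higher. The macrophage genes Lyz2 and Csf1r were at 2123, 2965 and 6088 and at 520, 621 and 1008 in stromal medium. In adipocyte medium Lyz2, which has a close copy in the genome, was at 101, 214 and 316 and Csf1r at 37.4, 86.4 and 66.4.

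Neutrophil markers were lower at 6 of 10 and higher at 1, or 5 and 2 after rescaling. The first share of lower genes was near the 57.2% over all tested genes, which became 38% after rescaling. Their sums were 2442 to 3892 in stromal and 2471 to 2556 in adipocyte medium. The higher member, the decoy receptor gene Il1r2, which is also on the cytokine receptor list, gave 1305 to 2078 of the sum in adipocyte and 356 to 383 in stromal medium. Without Il1r2 the sums were 2059 to 3536 in stromal and 465 to 1166 in adipocyte medium. All 3 tested erythroid markers were lower (2 of 3 after rescaling), with sums of 1321 to 3032 against 558 to 701. The 2 tested natural killer cell markers went the other way under either scaling, with Klre1 at 0.81 and Prf1 at 1.43. Both are also on the list of cytotoxic genes. The 6 T cell markers themselves were all lower, with a median of -0.97, and 4 of 6 were lower after rescaling. No tested marker of any of these types was without reads over all 3 samples of either medium. Adipocyte markers that the table holds were lower in adipocyte medium, 2 of 2, with Lpl at 193, 156 and 186 in stromal and at 0, 0.9 and 12.7 in adipocyte medium, and Vim was the 1 stromal cell marker and was lower, though not past the threshold after rescaling. B and myeloid cells also express lysosomal enzymes and LXR targets, and the part of these cells in the differences of those genes was not tested.

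A few genes changed to the same extent in both media. Among genes past the threshold in the same direction in both, the smallest differences were those of Resf1, Tcea2, Bace1 and Sanbr. Resf1, a repressor of endogenous retroviruses, was at 12546, 10565 and 12051 in unconditioned, at 27579, 22940.0 and 29861 in stromal and at 27210.0, 27379 and 25287 in adipocyte medium. Bace1, a membrane protease, was at 593, 538 and 539 in unconditioned, at 198, 246 and 244 in stromal and at 229, 212 and 248 in adipocyte medium. The conditioned groups overlapped in each of the 4 genes, and the limma standard errors were 0.11 to 0.17 on the log2 scale. The 4 genes were chosen for this closeness, and all 4 passed as higher in adipocyte medium after rescaling.

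The differences had the same sign in all 3 mice at 2586 of the 2609 called genes, but their size varied with the mouse. The genes were called from these same samples, and a call favours a shared sign, so this count is no check of the calls. Mouse 2 had the smallest difference of the 3 at 1763 called genes, against 370 for mouse 1 and 476 for mouse 3. The median absolute log2 difference over the called genes was 1.13, 0.88 and 1.18 in mice 1, 2 and 3. The adipocyte sample of mouse 2 was the lowest of its group at 670 of 968 higher genes, and its stromal sample was the lowest of its group at 1008 of 1641 lower genes. The interferon gamma list had medians of -1.47, -0.69 and -1.99 in mice 1, 2 and 3, the cytokine list 2.71, 1.64 and 2.18, and the cyclic AMP list 1.93, 0.89 and 1.75. In mice 1, 2 and 3 the B cell marker medians were -1.59, -1.36 and -1.70. The myeloid ones were -1.55, -1.64 and -1.51, and the neutrophil ones -1.50, -1.07 and -2.53. Mouse 2 thus had the smallest difference for B cell and neutrophil markers but not for myeloid markers. T cell receptor signalling genes were nearly level, at -0.65, -0.70 and -0.65.

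**Figure D5:**
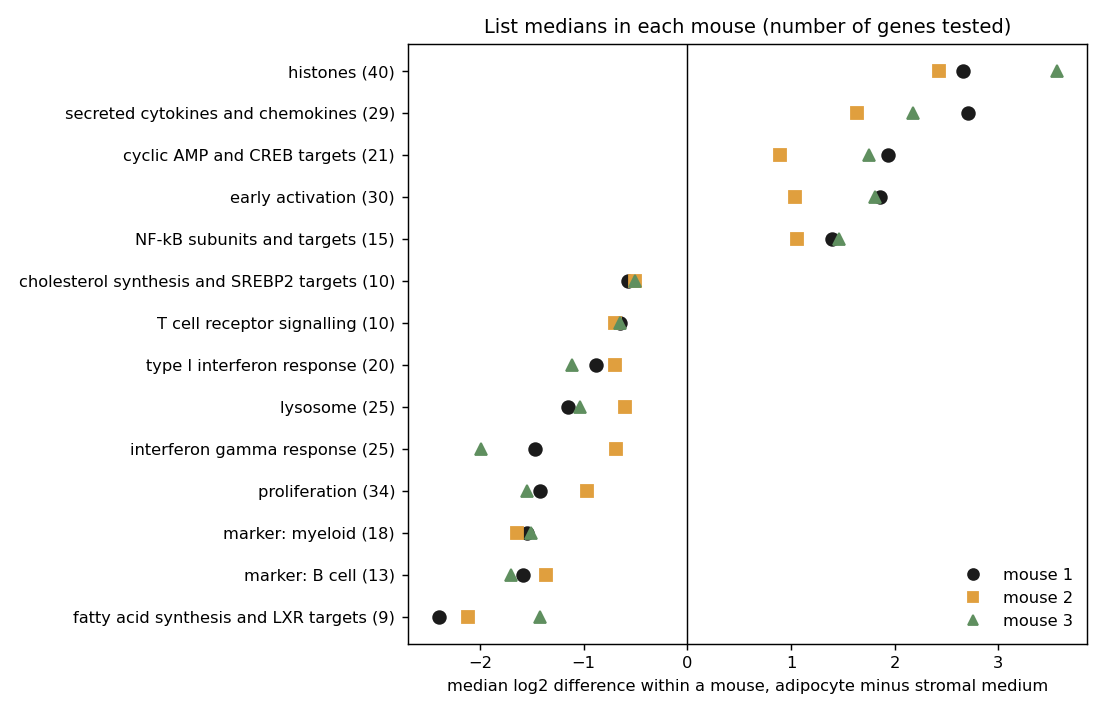
Median log2 difference, adipocyte minus stromal medium, of 14 gene lists within each of the 3 mice, with the number of genes tested in brackets. Mouse 2 (squares) has the smallest medians for cytokine, cyclic AMP and interferon gamma genes, at 1.64, 0.89 and -0.69.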

How the data were processed

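RNA of 9 samples (3 mice, 3 media) was sequenced from SMART-seq v4 cDNA and Nextera XT libraries, per the labels' protocols, which do not keep strand. FastQC, Trimmomatic, featureCounts and DESeq2 are named in the submitters' processing notes, with the builds GRCm39, GRCh38 and hg38 and no role for each. The sources used here name neither the aligner nor the annotation, so no gene coordinates are printed beyond those of the RefSeq promoter windows.

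The sample table deposited by the authors holds a normalized signal per gene: read counts divided by 1 size factor per sample, since dividing each sample by its smallest value gave whole reads for 100% of the values (tolerance 0.001). The authors' deposited tables of change against unconditioned medium were used only to see which genes had been selected, and no value of theirs is printed: per the file headers these give a mean signal, a log2 fold change with its error, a score, and a p-value. The sources used here do not say how those size factors were estimated. The listed genes were selected for change, so a rescaling on them has its own reference and is not neutral.

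Differences were fitted on log2(value + 1) by limma-trend (limma 3.58.1, R 4.3.3). The filter, a mean of 1 or more, left out 21 genes, and 1 fit took all 9 samples with the medium as the only factor. P-values are two-sided with Benjamini-Hochberg adjustment. Low genes change by more than their log2 difference shows, because of the added 1, whereas folds are ratios of group means. With 3 samples against 3, an exact permutation test of a single gene cannot pass 0.05, so none was run. Replicates of a medium differed by more than sampling noise (chi-square per degree of freedom 29.69 to 94.52), so none was merged. The labels give each replicate number as a mouse, so samples pair by mouse. Same-mouse residuals of the conditioned media correlated at 0.179, -0.125 and 0.0603. On counts simulated for this comparison (2872 genes) 60%, 78%, 100% and 98% of genes changed 1.5-fold, 2-fold, 4-fold and 8-fold were recovered. At each fold 50 genes were changed, as many up as down, and 9 of the 2672 unchanged genes were called. Far fewer genes changed there than in the data, so these shares need not hold for the data.

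The members, 41 gene lists and the naming rule were chosen with earlier results of these data known. The rule takes the 12 largest rises and 12 largest falls outside the lowest 25% of means with the same sign in 3 mice, leaving out unnamed models and pseudogenes, up to 4 genes of each list with at least 3 tested members, up to 8 genes of each opposite pattern, 16 genes by name and the 4 genes with the most equal change. Alternatives, edgeR 4.0.16 and DESeq2 1.42.0 on the recovered reads among them, are in the closing section. Exon overlaps come from GENCODE M21. Some genes that the rule names are not reported here.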

Additional observations from a re-analysis of the deposited data

How the results depend on the processing

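The main counts were recomputed under 21 alternatives. The 2609 genes past the threshold, 968 higher and 1641 lower, stayed within 1.5 times their value except that a test against a 1.5-fold change called 1693 genes and 596 higher ones, and rescaling by the median of ratios left 1090 lower ones. The genes on opposite sides of unconditioned medium numbered 4 (higher in adipocyte) and 9 (lower in adipocyte) in the 1.5-fold test, and the lower ones 164 under the median of ratios and 156 under TMM, against 70 and 88. Leaving out 1 sample or 1 mouse gave 2452 to 2590 genes in all, 907 to 959 higher, 1545 to 1632 lower, and 36 to 87 and 48 to 104 opposite genes, each lowest without mouse 1. With the mouse as a replicate block 2619 genes passed, and 2540 with the block over the 6 samples alone. The block changed the call of 1 named gene, Isg15. On recovered reads edgeR called 2611 genes and DESeq2 2606. Of the named genes past the threshold, 1 was reversed under the median of ratios, Sqle (0.15). The medians of the actin list (0.03) and of the adhesion list (0.14) were reversed there too. Of 154 named genes 141 kept direction and side of the threshold under every alternative. The exceptions were Msmo1, Ndufv1, Utp4, P2ry10, Gata1, Irf1, Sqle, Cd3e, Isg15, Resf1, Tcea2, Bace1 and Sanbr. Of 735 recomputed list medians 85 moved by more than the spread between replicates, 55 of them under the scalings. Few reads limit genes such as Il17a in stromal medium (3 reads) and Ccl22 in adipocyte medium (3 reads). Library depth beyond the listed genes is unknown.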

Other observations

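The authors' deposited cluster numbers, 4 in all, sort the genes by pattern over the same samples, so the counts here describe the clusters and support nothing. Of 913 tested genes in cluster 1, 832 were higher in adipocyte than in stromal medium, with a median log2 difference of 0.99. Of 1611 in cluster 2, 1514 were lower, with a median of -1.04. Cluster 3 held genes that were low in both conditioned media, with medians of -0.79 in adipocyte and -1.22 in stromal medium against unconditioned medium, and 136 of its 222 genes were higher in adipocyte medium. Cluster 4 held genes raised in stromal medium, with a median of 1.54 there and 0.27 in adipocyte medium, and 119 of its 122 genes were lower in adipocyte medium.

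Of 86 genes on the respiratory chain list, 5 were among the genes that the authors had listed as changed. All 5, each a complex I subunit, were lower in adipocyte medium, and 3 of 5 after rescaling. Over all tested genes the shares of lower ones were 57.2% and 38%. They ranged from -1.11 for Ndufs8 to -0.60 for Ndufv1, which stood at -0.03 after rescaling. Taldo1, an enzyme of the pentose phosphate pathway, was at 8203, 7533 and 8053 in stromal and at 2833, 3435 and 2637 in adipocyte medium. Slc25a10, the mitochondrial dicarboxylate carrier, was at 1264, 911 and 1082 in stromal and at 108, 161 and 123.1 in adipocyte medium, with a log2 difference of -3.05. The list of NRF2 and oxidative stress genes was split, with 4 of 6 lower and 2 higher under either scaling. Over all tested genes 57.2% were lower and 33.8% higher before rescaling, against 38% and 40.9% after it. Keap1, which holds the oxidative stress factor NRF2 in check, was lower at -1.43 while the NRF2 gene Nfe2l2 was higher at 0.98. Glucocorticoid targets were higher at 9 of 11 and lower at 1, or at 10 and none after rescaling, with Per1, a clock gene, at 1.65 and Fkbp5, a chaperone of the glucocorticoid receptor, at -0.63.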
